A study of Rattus norvegicus with 4 samples.

Results

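Iron-sulfur clusters are small inorganic groups of iron and sulfide that serve as cofactors in respiratory complexes, aconitase, DNA polymerases and many other proteins. They are made in mitochondria: a cysteine desulfurase releases sulfur, a scaffold protein joins it with iron to form a cluster, and chaperones, a glutaredoxin and A-type carriers pass the cluster on to the proteins that need it. The iron enters the organelle through the mitoferrins, and clusters in turn report iron status, because the cytosolic aconitase acts as an iron regulatory protein when it has lost its cluster.

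The transcripts of 8 genes of this pathway were examined in rat pancreas: Nfs1, Iscu, Hscb, Glrx5, Isca1, Isca2, Slc25a37 and Slc25a28. A probe was taken as a member when its gene symbol was one of these, which selected 11 of the 30367 gene probes of the array, for 8 of 26485 gene names. Of the 8 genes, 5 had 1 probe and 3 (Isca1, Isca2 and Slc25a28) had 2.

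Weanling male Sprague-Dawley rats received a diet with 5 ppm iron (FeD, iron deficient), 35 ppm (FeA, iron adequate) or 20275 ppm (FeO, iron overloaded) for 3 weeks, per the sample labels. The measured iron content in the study's methods differs slightly from the label for FeA. Pancreatic RNA of 6 rats was combined into 1 pool per diet. For FeD and for FeO, 2 arrays carried that pool together with the FeA pool, which was labelled with Cy3 on array 1 and with Cy5 on array 2. All 4 arrays were on 1 slide and were read in 1 scan. Since the swapped arrays measure the same RNA, they count as 1 replicate, their difference is technical, and no test of the diets was possible. In bulk tissue, fewer cells of a type cannot be told apart from less RNA per cell. The labelled tissue was checked against 11 acinar genes, among them trypsinogen, carboxypeptidases, amylase and elastases, and all 11 were well above background in every channel.

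Median spot signals ranged from 115 to 222.5 intensity units by channel, with local backgrounds of 50 to 87. The scanner software rated 61.9% to 71.5% of the gene spots of a channel as well above background. Of the 11 member probes, 10 were well above background in all 8 channels and 1, that of Slc25a37, in 0. None of the 11 was saturated. Levels are given as log2 signal after normalization, and levels of different probes cannot be set against each other. A ratio is the log2 of diet over FeA, with the value on array 1 before the value on array 2.

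Nfs1 is the cysteine desulfurase that supplies the sulfur. Its level was 10.03 and 10.17 in the FeD pool, between 10.099 and 10.178 in the 4 FeA channels, and 10.17 and 10.43 in the FeO pool. One FeD value lay below the FeA channels and 1 FeO value above them, and the other two were among them. The Nfs1 ratio was -0.12 and 0.07 in FeD, with a mean of -0.02. In FeO it was -0.01 and 0.33, with a mean of 0.16. In both comparisons the arrays differed in sign.

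Iscu encodes the scaffold on which the cluster is assembled. Its level was 9.80 and 9.71 in FeD, 9.62 to 9.94 in FeA, and 9.93 and 9.88 in FeO, so that both diets lay within the FeA range. The ratio was -0.11 and -0.04 in FeD (mean -0.08). In FeO it was -0.01 and 0.26 (mean 0.13). Of the 10 detected probes, those of Iscu and Hscb were the ones with the same sign on both FeD arrays.

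Hscb is the J-domain co-chaperone that helps release the cluster from the scaffold. Its level was 8.61 and 8.58 in FeD, 8.52 to 8.70 in FeA, and 8.47 and 7.88 in FeO. The FeD values lay inside the FeA range, whereas both FeO values lay below it, the first by less than the FeA channels differed among themselves. The ratio in FeD was -0.0029 and -0.13 (mean -0.06). In FeO it was -0.05 and -0.78, and the mean of -0.41, a linear ratio of 0.751, was the largest in size of any member in either comparison. This value came from array 2, where the FeO channel had a signal of 195 over a background of 54 and the FeA channel 501 over 82. Without array 2 the FeO ratio was -0.05, and each array lay 0.36 from the mean, a distance close to the mean itself. Under the other background corrections and normalizations, all of which include array 2, the Hscb ratio in FeO lay between -0.56 and -0.36.

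**Figure D1:**
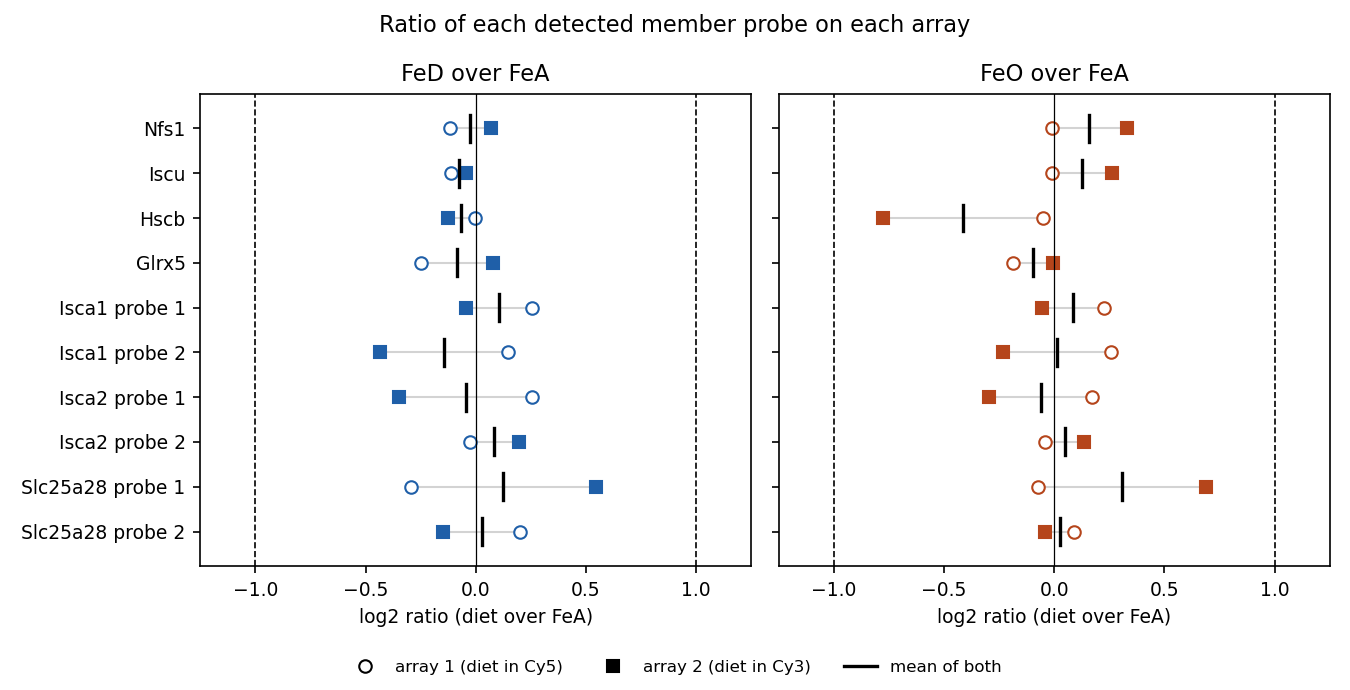
Log2 ratio of diet over FeA for each of the 10 detected member probes, on array 1 (open circles, diet in Cy5) and array 2 (filled squares, diet in Cy3), with the mean as a black bar and dashed lines at log2 ratios of 1 and -1. No mean passes a dashed line, the means lie near 0 apart from Hscb (-0.41) and Slc25a28 probe 1 (0.31) in FeO, and the 2 arrays often fall on opposite sides of 0.

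Glrx5, the mitochondrial glutaredoxin that receives the new cluster, was measured by 10 spots per array. Its level was 9.24 and 9.40 in FeD, 9.32 to 9.57 in FeA, and 9.39 and 9.37 in FeO. One FeD value was below the FeA channels and the others were among them. The ratio was -0.25 and 0.08 in FeD (mean -0.09). In FeO it was -0.19 and -0.0039 (mean -0.10), lower on both arrays but by less than 0.1 on average.

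Isca1 and Isca2 encode the A-type carriers, which act together in making the clusters of mitochondrial proteins such as aconitase. The 2 Isca1 probes, which carry the same transcript accession, differed in sign in FeD. In FeD, probe 1 had a ratio of 0.26 and -0.04 (mean 0.11) and probe 2 had one of 0.15 and -0.43 (mean -0.14). In FeO the values were 0.23 and -0.06 for probe 1 (mean 0.09) and 0.26 and -0.23 for probe 2 (mean 0.01). Every Isca1 ratio was thus above 0 with the diet in Cy5 and below 0 with the diet in Cy3, in either comparison. The level of probe 2 was 11.58 and 11.03 in FeD, 11.44 to 11.53 in FeA, and 11.72 and 11.29 in FeO, and that of probe 1 was 11.26 and 11.13 in FeD, 11.01 to 11.22 in FeA, and 11.44 and 11.13 in FeO. For probe 2 each diet had 1 value above and 1 below all FeA channels.

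For Isca2 the 2 probes also disagreed in sign, and the gene value of 0.02 in FeD and -0.0068 in FeO turned to -0.03 and 0.05 with median centring. For probe 1 the FeD ratio was 0.25 and -0.35 (mean -0.05), while the FeO ratio was 0.17 and -0.30 (mean -0.06). For probe 2 they were -0.03 and 0.20 (mean 0.08) in FeD, and -0.04 and 0.14 (mean 0.05) in FeO. The direction of each single array therefore depended on which probe was read. The level of Isca2 probe 1 was 9.71 and 9.40 in FeD, 9.33 to 9.75 in FeA, and 9.54 and 9.04 in FeO. That of probe 2 was 10.014 and 9.996 in FeD, 9.801 to 10.045 in FeA, and 10.002 and 9.982 in FeO. Of these 8 diet values, 1, that of probe 1 on FeO array 2, fell outside the FeA range.

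Slc25a37 (mitoferrin-1) is the iron importer of the mitochondrial inner membrane that developing red cells depend on, and Slc25a28 (mitoferrin-2) is its widely expressed relative. In none of the 3 pools was the Slc25a37 probe well above background. Its signal was 119 over a background of 100 and 85 over 57 in FeD, and 128 over 84 and 74 over 49.5 in FeO. In the 4 FeA channels it was 74 over 53, 123 over 84, 80 over 56 and 105 over 81.5. This gene has no measured ratio, since neither pool of a comparison was measured above background. Of 11 erythroid marker genes listed, 9 were on the array and 7 passed the detection filter in each comparison, with a median ratio of 0.57 in FeD and 0.25 in FeO. By array the median was 0.48 and 0.59 in FeD, but 0.02 and 0.35 in FeO, so the FeO median depended on the array. Alas2, the erythroid enzyme that starts heme synthesis, was higher in FeD by 0.90 and 1.57 (mean 1.24), and Slc4a1, the red cell anion exchanger, by 0.80 and 1.39 (mean 1.09). In FeO the mean was 0.44 for Alas2 and -0.07 for Slc4a1, and Ahsp, which stabilises alpha globin, had -0.15. Erythroid transcripts were thus measurable in pools in which Slc25a37 was not.

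Slc25a28 was well above background in every channel, and its 2 probes, again with the same transcript accession, gave different ratios. For probe 1 the FeD ratio was -0.29 and 0.55 (mean 0.13), while the FeO ratio was -0.07 and 0.69 (mean 0.31). For probe 2 they were 0.20 and -0.15 (mean 0.03) in FeD, and 0.09 and -0.04 (mean 0.02) in FeO. The probes moved in opposite ways between the dyes. The mean over both was 0.08 in FeD and 0.17 in FeO, whereas the brighter probe alone gave 0.03 and 0.02. By array the gene value was -0.05 and 0.20 in FeD and 0.0097 and 0.32 in FeO. It was thus higher on array 2, with the diet in Cy3, in both comparisons. A single array holds any dye effect that the mean of the swapped arrays would cancel. The level of probe 1 was 9.26 and 9.72 in FeD, 9.17 to 9.56 in FeA, and 9.49 and 9.93 in FeO. That of probe 2 was 10.37 and 10.56 in FeD, 10.17 to 10.71 in FeA, and 10.56 and 10.55 in FeO, inside the FeA range throughout.

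**Figure D2:**
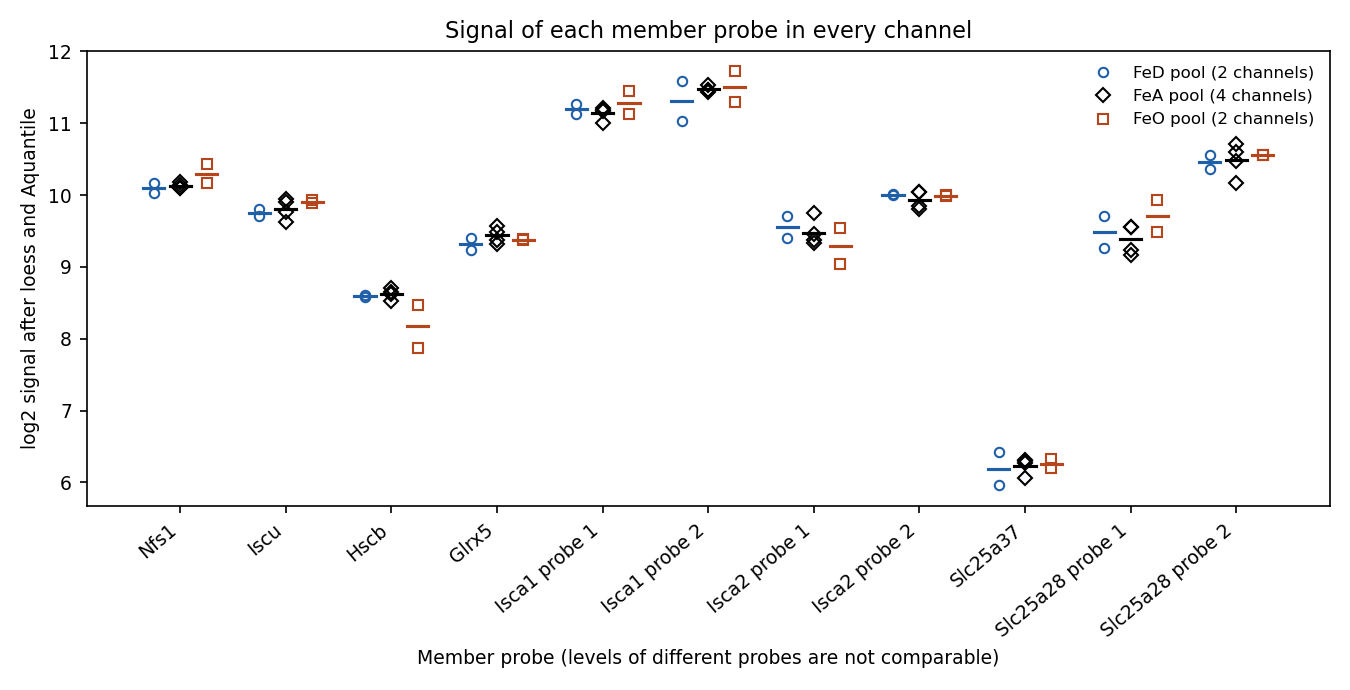
Log2 signal of each member probe in all 8 channels after loess within and Aquantile normalization between arrays, for the FeD pool (circles), the FeA pool (diamonds) and the FeO pool (squares), with horizontal bars at the means. The 4 FeA values are 1 pool and spread over 0.079 to 0.54 for the detected probes, and Slc25a37 lies near the background at about 6.2.

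Across the 10 detected probes, the mean level of the FeD pool lay within the range of the FeA channels for 7 and that of the FeO pool for 5. The spread over the FeA channels, which hold the same RNA, ran from 0.079 to 0.54. The distance of the single arrays from their mean was larger than the mean ratio itself for 8 of 10 probes in FeD and for 8 of 10 in FeO. The median of that distance was 0.16 over the member probes in both comparisons, against 0.11 in FeD and 0.12 in FeO over all probes that passed the filter. That distance includes any dye effect of a probe, which cancels in the mean of the swapped arrays where it is equal on both. It is therefore not the error of the mean ratio. Taken as array 1 less the mean, it had the same sign in FeD and FeO for each of the 10 detected probes. Its size was alike for Slc25a28 probe 1 (-0.42 and -0.38) but not for Hscb (0.06 and 0.36).

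A gene was counted as past the fold when its mean log2 ratio was at least 1 in size with the same sign on both arrays, over the genes well above background in at least 1 of the 2 diets. In FeD against FeA, 0 of the 7 detected members passed, and over all 15727 genes 0.356% did (0.114% higher and 0.242% lower). In FeO against FeA, 0 of 7 passed, and over all 16425 genes 1.08% did (0.609% higher and 0.469% lower). Since few genes of the array passed, a count of 0 among 7 is near the background in both comparisons. At a log2 ratio of 0.5, 0 of 7 members passed in either diet, against 1.71% of all genes higher and 0.935% lower in FeD, and 3.32% higher and 2.0% lower in FeO. The sign was the same on both arrays for 2 of the 7 members in FeD and 3 in FeO, where the share over all genes was 46.9% and 52.2%. limma's moderated test on the 2 arrays compares the RNA pools by technical error. No dye term was fitted, so a probe's dye effect counts as error. The test called 0 of the 10 member probes after Benjamini-Hochberg adjustment in either comparison and 0 at an unadjusted p under 0.05. The same test called 103 of 17513 probes in FeD and 153 of 18315 in FeO.

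The median gene value of the detected members was -0.02 in FeD and 0.05 in FeO, beside 0.01 in both comparisons over all genes. With either array alone the FeD median was -0.05 or -0.04, and the FeO median turned to -0.0105 or -0.0039. The order of the members differed between the arrays, and as means of both arrays their gene values ran from -0.09 (Glrx5) to 0.08 (Slc25a28) in FeD and from -0.41 (Hscb) to 0.17 (Slc25a28) in FeO. The central 90% of all genes lay between -0.23 and 0.32 in FeD and between -0.33 and 0.42 in FeO, and Hscb in FeO was the member outside it. Both comparisons use the same FeA pool, so their values are not independent of each other.

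**Figure D3:**
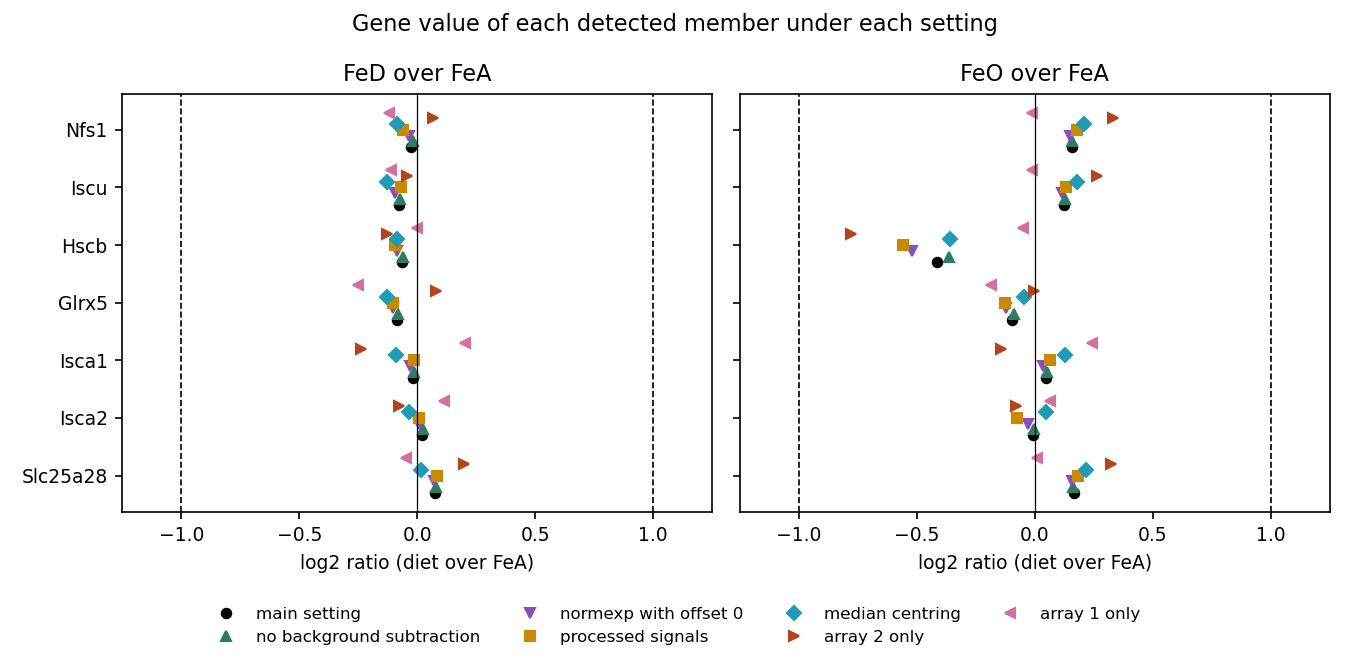
Gene value (log2 ratio of diet over FeA) of the 7 detected members under the main setting, other background corrections and normalizations, and each array alone, with dashed lines at 1 and -1. Apart from Hscb in FeO, where array 1 alone gives -0.05 and array 2 alone -0.78, the settings that use both arrays stay within 0.25 of 0, and no setting takes a member past a dashed line.

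The genes whose 4 array ratios were nearest to those of Hscb, by Euclidean distance among 15127 genes outside the lists, were the zinc exporter Slc30a1 at 0.17 and 2 probes with no gene symbol in the tables used at 0.18 and 0.19. The Slc30a1 ratios were -0.09 and -0.25 in FeD and 0.0034 and -0.71 in FeO. As for Hscb, the low value stood on FeO array 2 alone, which a search over these same 4 ratios selects for. Of the 15127 genes, 787 lay within a distance of 0.5.

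The 5' flanks of the members were compared for features that the choice of genes did not use. RefSeq promoter windows of 250 bases (GRCr8) were matched for 6 of the 8 genes. Their G and C content ran from 55.2% (Glrx5) to 66.8% (Isca1), where the median over 33469 windows was 51.2%. The letters CCAAT, searched on both strands and chosen after the windows were seen, occurred in 5 of the 6, and in 34.0% of all windows. The letters CCGGAAG, the core of an ETS site, occurred in 2 of the 6, Isca1 and Iscu, and in 7.27% of all windows. Such a match is a description of the letters and not a binding site. The windows of Hscb (chr12:51481093-51481342, plus strand), the member with the largest ratio, and Isca1 (chr17:4910566-4910815, plus strand), which holds both motifs, are shown 5' to 3' with matches to either motif, on either strand, in capitals.
Hscb: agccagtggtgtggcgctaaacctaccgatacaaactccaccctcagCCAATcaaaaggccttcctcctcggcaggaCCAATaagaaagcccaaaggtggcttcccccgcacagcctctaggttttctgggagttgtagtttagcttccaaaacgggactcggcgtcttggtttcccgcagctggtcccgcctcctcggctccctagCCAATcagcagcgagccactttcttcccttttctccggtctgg
Isca1: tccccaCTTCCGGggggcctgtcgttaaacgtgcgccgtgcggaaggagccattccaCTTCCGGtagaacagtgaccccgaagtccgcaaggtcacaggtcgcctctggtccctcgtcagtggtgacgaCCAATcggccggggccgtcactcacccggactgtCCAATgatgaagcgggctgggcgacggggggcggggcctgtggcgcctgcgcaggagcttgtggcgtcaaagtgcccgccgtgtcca

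Other genes of the pathway were examined as lists. Of 20 mitochondrial partners, which include frataxin, the ferredoxins that supply electrons and the Hspa9 chaperone, 19 were on the array, and 18 passed the filter in FeD and 17 in FeO. Past the fold were 0 in either direction in both comparisons. The medians were -0.03 and 0.04, and each changed sign between the arrays, from -0.08 to 0.0051 in FeD and from -0.05 to 0.05 in FeO. The highest was Fdx1, a mitochondrial ferredoxin, at 0.28 and 0.29 in FeD (mean 0.29) and 0.21 and 0.33 in FeO (mean 0.27). The lowest were Abcb8, a transporter of the mitochondrial inner membrane, at -0.21 in FeD and Nubpl, an assembly factor of respiratory complex I, at -0.33 in FeO.

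The cytosolic assembly machinery, which builds clusters for cytosolic and nuclear proteins, had 9 of 11 listed genes on the array and all 9 passed the filter. Past the fold were 0 of them, with medians of 0.0019 in FeD and -0.03 in FeO. The sign of both medians turned with a single array, to -0.03 on either FeD array and to 0.0061 and 0.0019 on the FeO arrays. Ciapin1, which passes electrons to the early steps, had the lowest mean in both comparisons (-0.17 and -0.11). By array it was -0.04 and -0.31 in FeD, and -0.03 and -0.20 in FeO. On array 1 it was not the lowest, since Ndor1 had -0.19 in FeD and -0.24 in FeO. Nubp1, a scaffold protein, was highest in FeD (0.18) and Ciao1, part of the targeting complex, in FeO at 0.25 and 0.63 (mean 0.44).

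Of 34 proteins that carry a cluster, 29 were on the array, with 0 past the fold. The median was -0.05 over 27 genes in FeD and 0.09 over 28 in FeO. By array it was -0.04 and -0.05 in FeD, but 0.02 and 0.06 in FeO. Rsad2 (viperin), an antiviral radical SAM enzyme, had the highest ratio in FeD, at 1.04 and 0.76 (mean 0.90), and 0.35 and 0.12 in FeO. Xdh, xanthine dehydrogenase, was highest in FeO at 0.35 and 0.90 (mean 0.62) and was -0.20 in FeD. Prim2, the large primase subunit, was lowest in FeO at -0.33 and -0.79 (mean -0.56), and Etfdh, which feeds electrons from fatty acid oxidation into the respiratory chain, was lowest in FeD (-0.23). Aco1, the cytosolic aconitase and iron regulatory protein, had a mean of -0.02 in FeD and 0.26 in FeO. By array its ratio was -0.05 and 0.002 in FeD, and 0.14 and 0.38 in FeO.

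Among 31 other carriers of the family to which the mitoferrins belong, 26 passed in each comparison, with medians of -0.06 in FeD and 0.05 in FeO. By array these medians were -0.10 and -0.01 in FeD, and 0.04 and 0.05 in FeO. Without the filter the FeD median was -0.03. Slc25a39, which brings glutathione into mitochondria, was highest in FeD (0.26, from -0.07 and 0.60) and Slc25a4, an ADP/ATP carrier, in FeO (0.45, from 0.32 and 0.58). A single carrier was past the fold, Slc25a35, at -1.35 and -1.18 in FeD (mean -1.27) and -1.81 and -1.56 in FeO (mean -1.69). Slc25a35 was well above background in every pool. Of 7 markers of intestinal epithelium, 6 were past the fold downward in FeD and 6 in FeO, but some passed the filter through FeA alone. Those measured above background in all pools were Lgals4 (-2.18 in FeD and -3.59 in FeO), Krt20 (-1.16 and -1.74) and Vil1 (-0.19 and -0.13). Vil1 differed in sign between the arrays, at -0.76 and 0.38 in FeD and -0.55 and 0.28 in FeO. Fabp1, Fabp2, Apoa1 and Cdh17 were not well above background on either FeO array. They were lower in FeO by at least 21.8-fold, 6.32-fold, 7.95-fold and 3.54-fold, taking the higher of the lowest signal well above background and the gene's own signal as the FeO level. In FeD, Fabp2 was below that criterion on both arrays (at least 6.77-fold lower), and Fabp1, Apoa1 and Cdh17 on 1 of 2. The summed signal of that list was 7500 and 7084 in FeA against 1677 and 1870 in FeD, and 7490 and 7091 in FeA against 1134 and 1278 in FeO. The study found Fabp1, Fabp2 and Apoa1 in pancreas to be under the qRT-PCR detection limit, and gave them as discrepancies from the array. The part of intestinal epithelial cells in the Slc25a35 ratio was not tested.

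**Figure D4:**
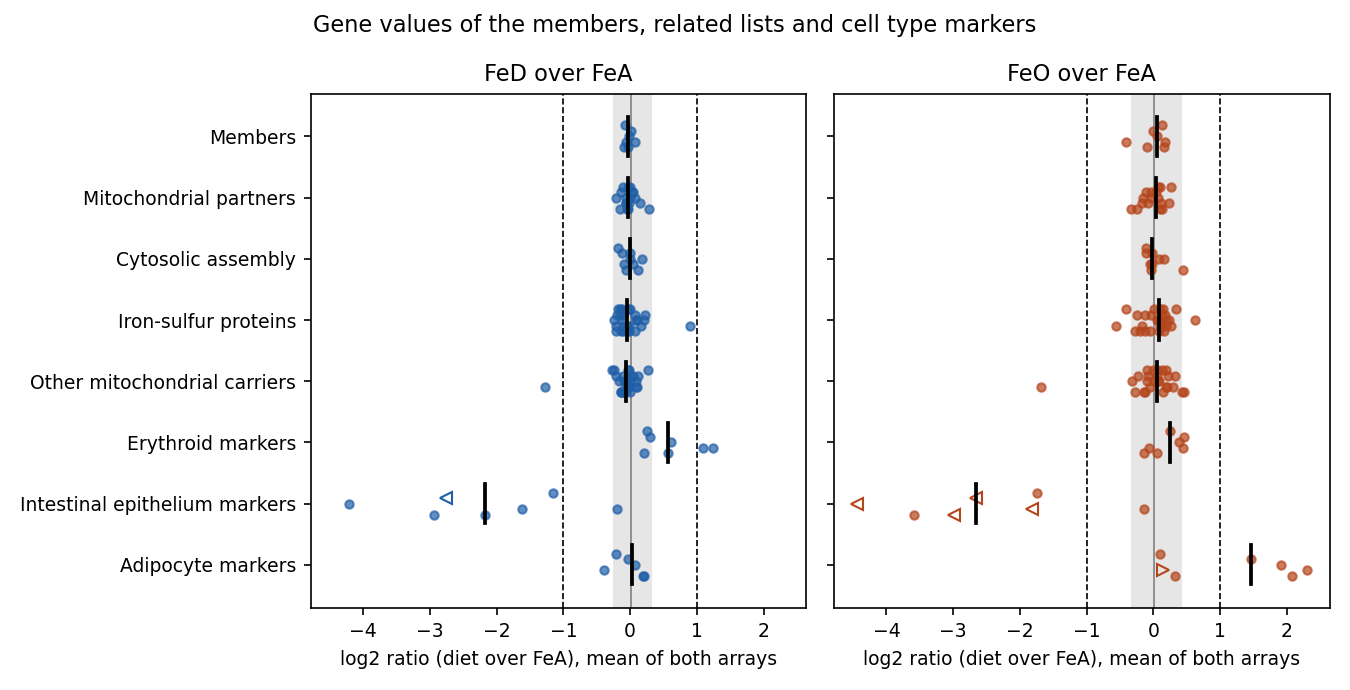
Gene values (mean log2 ratio of diet over FeA) of the members, the related lists and 3 lists of cell type markers, 1 filled point per gene that passed the filter, open triangles at the bound where 1 pool was too dim on both arrays to be well above background, with black bars at list medians, grey bands over the 5th to 95th percentile of all genes and dashed lines at 1 and -1. Members and related genes lie mostly in the grey band, while 6 of 7 intestinal markers lie far below it in both comparisons and 4 adipocyte markers lie above 1 in FeO.

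The member ratios stood beside shifts in other tissue components. Of 7 adipocyte markers, 4 were past the fold upward in FeO (median 1.47), where Adipoq, the fat cell hormone adiponectin, had 1.97 and 2.17, and 0 in FeD (median 0.03). Plin1 was above background in FeO but not in FeA, and was higher by at least 1.1-fold. Lep and Lipe, also not past the fold, had FeO means of 0.10 and 0.32. Of 7 islet markers, 0 were past the fold in FeD, where the median was -0.22 (-0.04 and -0.25 by array). In FeO their median was -0.77, with 2 past the fold downward (Iapp and Ppy, which encode amylin and pancreatic polypeptide) and 1 upward, Gcg, which encodes glucagon, with a mean of 1.14. The leukocyte markers had a median of 0.42 over 6 genes in FeD and -0.43 over 5 in FeO, where Cd68 (0.27) and Itgam (0.28) of the myeloid cells went the other way. The acinar markers did not move as one in FeD: Ctrb1, Cela1 and Clps, which encode secreted digestive proteins, had means of 0.60, 0.53 and 0.53 and were higher on both arrays, the transcription factor Ptf1a had -0.33, and the median over 11 genes was -0.04 (0.04 and -0.02 by array). In FeO the acinar median was -0.44, over 7 of the 11 genes because 4 had an outlier mark on FeO array 2. Whether these components altered a member ratio was not tested.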

How the data were processed

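Pancreatic RNA pools of 6 rats per diet were compared on 4 two-colour arrays. Per the file headers, the authors obtained the intensity values from Agilent Feature Extraction 10.1.1.1: median spot and background signals are uncorrected, and processed signals are background corrected and dye normalized. The authors' tables of fold changes, p-values and q-values were used for probe names only. Members and lists were chosen with earlier results of these data known.

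The ratios were obtained with limma 3.58.1 under R 4.3.3. Median signals replaced mean signals, which the files do not hold, as was decided once the files had been seen. The background step was normexp (offset 50), control probes had no weight in the loess fit within each array, and spots with outlier marks (722, 938, 764 and 735) were left out. Ratios were turned to diet over FeA, averaged over the spots of a probe and then over the 2 arrays. A probe counted as detected in a channel if over 50% of its spots were well above background, and it passed if 1 or both diets had it detected on both arrays. A gene value is the mean over its passing probes. Channel levels followed loess and Aquantile normalization.

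Of 30367 probes, 18004 were named through their accession in the reference table (GRCr8), 4945 by the authors' symbol column and 7418 by the array's own name. Isca2 was named by accession, as the table gives an older symbol. Besides the members, named genes are those of each list with a value of at least 0.5 in size and 1 sign, its highest and lowest gene, the 3 genes nearest to the member with the largest value, and markers. Aco1 was added after its values were seen. The steps were tested on simulated data, which held no dye effect of single probes. Python 3.11.15, pandas 2.3.3 and numpy 2.4.6 were used.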

Additional observations from a re-analysis of the deposited data

How the results depend on the processing

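Each count of members past the fold was 0 in FeD and 0 in FeO under every alternative run. The signal steps were other background corrections, median centring and Aquantile. The others were other filters, the brightest probe, each array alone and log2 ratios of 2 and 0.5. limma's moderated test with adjustment also gave 0 (0 also at an unadjusted p under 0.05). Some of these could not have changed the count. Aquantile changes no ratio, and a log2 ratio of 2 is stricter than the main cut. The filter on both diets keeps all 10 detected probes. The medians of the members, -0.02 in FeD and 0.05 in FeO, were unchanged under Aquantile and with the filter on both diets. Without background subtraction the FeO median was 0.0524. Elsewhere the medians moved by more than the very small spread of the 2 array medians. They were -0.0188 in FeD without background subtraction, -0.0368 and 0.0367 with an offset of 0, -0.0596 and 0.066 with the processed signals, -0.0871 and 0.1275 with median centring, -0.0449 and 0.0715 without a filter, which lets in Slc25a37, a gene with no measured ratio, so that these medians are not comparable, and -0.0649 and 0.0249 with the brightest probe. With 1 array left out the median ran from -0.0473 to -0.0441 in FeD and from -0.0105 to -0.0039 in FeO, where its sign changed; the cause was not tested. Median centring moved the FeD ratios of Iscu to -0.13, Glrx5 to -0.13, Nfs1 and Isca1 to -0.09 and Slc25a28 to 0.02, and the FeO ratios of Glrx5 to -0.04 and Isca1 to 0.13. It turned Isca2 to -0.03 in FeD and 0.05 in FeO, and the brightest probe also turned Isca2 in FeO to 0.05. Isca2 in FeO, at -0.0068, was -0.0753 with the processed signals, -0.0299 with an offset of 0 and -0.0018 without background subtraction. In FeD, Isca2 was 0.0091 with the processed signals, 0.0066 with an offset of 0 and 0.08 with the brightest probe, Nfs1 was -0.06 and Isca1 -0.0122 with the processed signals, and Isca1 was -0.0299 with an offset of 0. The brightest probe gave -0.14 and 0.01 for Isca1 and 0.03 and 0.02 for Slc25a28, in FeD and FeO. Hscb in FeO was -0.05 without array 2 and -0.78 without array 1. No scaling moved the median of all genes by over 0.1. No paired analysis was possible because each comparison has 1 replicate. Slc25a37, with a signal near background in every channel, was left out elsewhere.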
